A study of Homo sapiens with 6 samples.

Results

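Forkhead (FOX) genes encode transcription factors that share a winged-helix DNA-binding domain and are sorted by sequence into lettered classes. Some bind closed chromatin and act in cell identity, and others, such as the FOXO class, are switched off when insulin or growth factor signalling through AKT moves them out of the nucleus. In the uterus, FOXA2 acts in the glands and FOXO1 in decidualizing stroma, and FOXJ1 marks ciliated epithelial cells. The family was read here in RL95-2 cells, a human endometrial carcinoma line, of which 48 forkhead genes among 23228 genes counted were described.

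The genes were chosen by their symbols, which had to be FOX, a letter from A to S and a number, and FOXA1 and FOXM1 were not included. The measured values that chose the expressed subset were the control levels, so these are given as a description only. The family was proposed with results of these libraries already known, and its counts of changed genes are descriptive.

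The study asked how medium from fat cells alters endometrial cancer cells. RL95-2 cells were kept for 24 h without serum, either in RPMI with an equal part of DMEM (control, 3 libraries) or in RPMI with an equal part of ADP-CM (3 libraries). ADP-CM is DMEM conditioned by mature adipocytes isolated from human adipose tissue and then filtered. All libraries came from 1 cell line, and the labels do not state that replicates were separate cultures, so p-values measure only the spread between these samples.

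Each library had between 16262614 and 18363033 reads on genes, of which 14747 to 16951 fell on forkhead genes. Reads on no gene made up 10.2% at the lowest and 11.6% at the highest, and every ADP-CM library had a larger share than every control library. All 7 epithelial markers were measurable, with EPCAM at 200.05 ± 4.38 CPM in control (SD, n = 3). Of these 7 markers, 2 were higher (MUC1 and PAX8) and 4 lower (CDH1, KRT8, KRT18 and KRT19) with ADP-CM at an adjusted p under 0.01. Of all tested genes, 13.5% were higher and 13% lower. EPCAM did not pass, and the largest fall was that of KRT19, from 268 ± 3.88 to 149 ± 4.14 CPM. Adipocyte markers summed to between 0.616 and 1.18 CPM in control and between 0.939 and 1.20 CPM in ADP-CM, with ADIPOQ and LEP at 0 reads in every library. One leukocyte marker, CD68, was higher with ADP-CM (7.43 ± 0.669 against 10.7 ± 1.03 CPM, n = 3 each), as was the stromal gene COL1A1 (62.3 ± 3.73 against 76.7 ± 0.839 CPM), and the endothelial marker CDH5 lay at 63.5 ± 2.94 CPM in control. Only 1 of 5 leukocyte, 2 of 6 stromal and 1 of 4 endothelial markers had enough reads to be tested. PTPRC and COL1A2, for instance, had at most 1 read in any library. The part of these markers in the results was not tested.

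Some forkhead genes resemble each other so closely that short reads cannot always be assigned. FOXO3 and FOXO3B are the clearest case among expressed genes, and the sequences are shown because their values below rest on it. All 2019 coding bases of FOXO3 aligned to FOXO3B, 99.1% of them identical, and 64.0% of 60-base windows had no difference. The 60 bases at chr6:108882645-108882704 (FOXO3, + strand) and chr17:18575947-18576006 (FOXO3B, - strand), on build GRCh37, lie in the coding part of FOXO3. They were picked for having the most differences among 1842 windows, and capitals mark the 3 bases that differ.
FOXO3: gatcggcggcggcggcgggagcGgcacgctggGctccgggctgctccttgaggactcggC
FOXO3B: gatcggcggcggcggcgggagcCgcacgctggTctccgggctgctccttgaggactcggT

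Of the 48 genes, 24 were expressed in control, defined as a mean of at least 1 CPM, where CPM are TMM-scaled counts relative to library size. FOXP3, at 1.30 CPM, and FOXI1, at 1.51 CPM, lay just inside this limit, and FOXA2, at 0.693 CPM, and FOXI3, at 0.635 CPM, just outside it. A further 9 genes had no read in any library (FOXA3, FOXB2, FOXD4L2, FOXD4L4, FOXD4L5, FOXD4L6, FOXL2, FOXR2 and FOXS1). A count of 0 allows up to 3 reads per library, which covers counting error only. Between 84.1% and 100% of the 50-base stretches in the 4 FOXD4L genes of this group also occur in another gene, and reads from such stretches have no unique place.

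The other low genes were also below reach. No library had more than 3 reads of FOXD3, FOXD4L3, FOXE3, FOXI2, FOXN1, FOXN4, FOXP2 or FOXR1, and no library had more than 16 reads of FOXA2, FOXD4, FOXD4L1, FOXE1 or FOXH1. FOXD3, a factor of neural crest and pluripotent cells, had 1, 1 and 3 reads in control and 0 in every ADP-CM library. FOXN4 had 1, 3 and 1 reads in control and 0, 0 and 1 in ADP-CM. For both genes the groups did not overlap in CPM, but both lay at or under the 3-read limit and no fold is given. FOXA2, the uterine gland factor, had 8, 11 and 16 reads in control and 4, 10 and 6 in ADP-CM, which overlap.

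Compared per kilobase of the main annotated transcript, FOXC1 had the highest control level of the family at 34.6 ± 1.06 CPM per kb (SD, n = 3), and FOXK2 followed at 26.4 ± 0.236 CPM per kb. FOXD1 had 24.5 ± 0.797, FOXF2 20.1 ± 0.808 and FOXJ3 19.0 ± 0.474 CPM per kb, the last pair separated by little more than their SD. These 5 genes held 54.0% of the family's CPM in control. The levels per kb of the 24 expressed genes spanned a 59.98-fold range, down to FOXP3, the regulatory T cell factor, at 0.576 ± 0.297 CPM per kb. The order depends on the length used, a comparison added after the data were seen. When all annotated exons were counted, FOXK2 fell to rank 5 at 13.9 CPM per kb and FOXP1 moved from rank 10 at 5.36 CPM per kb to rank 17 at 1.17 CPM per kb. FOXD1 is less certain as well, because 76.9% of its 50-base stretches also occur in other genes, mainly transcripts annotated over the same exons.

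**Figure D1:**
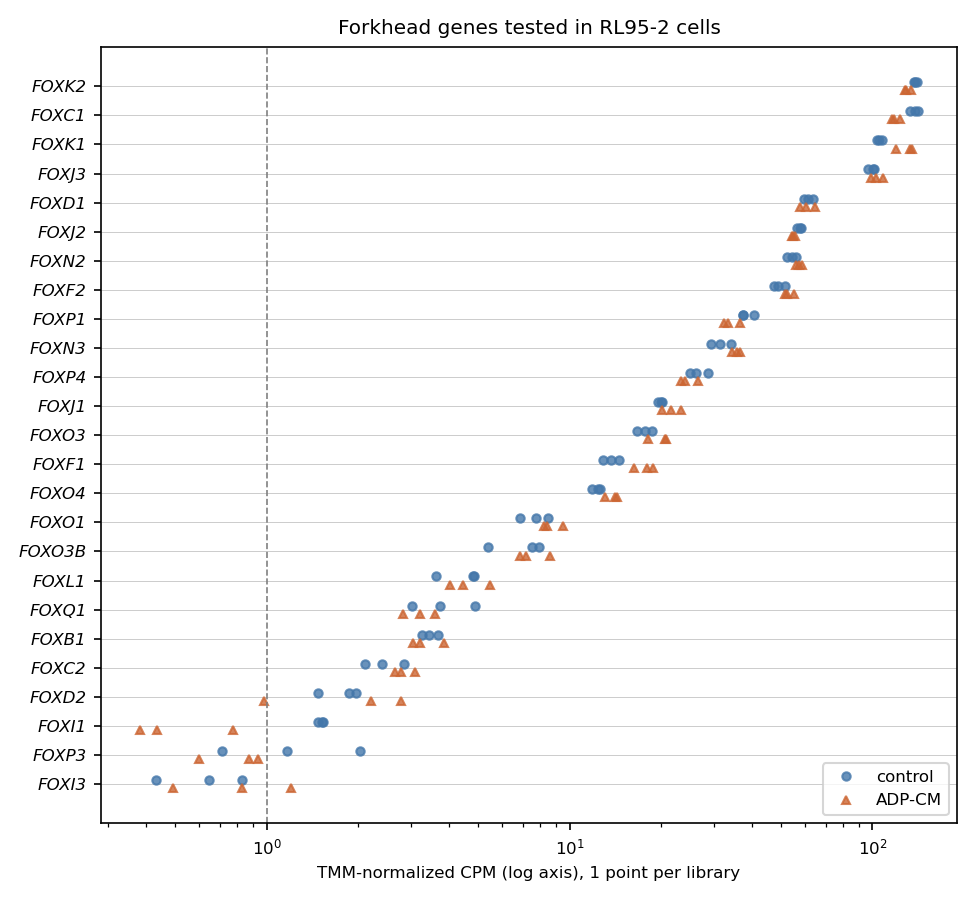
TMM-normalized CPM of the 25 tested forkhead genes on a log axis, one point per library, with circles for the 3 control and triangles for the 3 ADP-CM libraries. The dashed line marks 1 CPM, and the groups do not overlap for 12 of the 25 genes, among them FOXI1, with circles near 1.51 CPM and triangles at a mean of 0.530 CPM.

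By class, as CPM not divided by length, FOXK genes had the largest sum at 243.7 ± 1.57 in control and 260.1 ± 9.41 CPM in ADP-CM. The FOXO sum was 44.7 ± 1.06 in control and 50.0 ± 2.92 CPM in ADP-CM, and the FOXC sum was 140.1 ± 4.57 and 121.7 ± 3.86 CPM, with no overlap between groups for either. The whole family summed to 899.4 ± 9.47 CPM in control and 912.0 ± 10.9 CPM in ADP-CM, where the groups overlapped. Class sums carry no test.

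Among the 25 genes tested, 24 expressed ones and FOXI3, 2 were higher with ADP-CM (FOXK1 and FOXF1) and 3 were lower (FOXI1, FOXC1 and FOXP1) at an adjusted p under 0.01 in the quasi-likelihood test of edgeR, Benjamini-Hochberg adjusted over 12663 genes. Of all tested genes, 13.5% were higher and 13% lower at this limit, or 26.5% in either direction, against 5 of 25 (20%) for the family. With a fold change over 1.5 as well, 0 were higher and 1 (FOXI1) was lower, where 1.14% of all tested genes were higher and 1.14% lower. The groups did not overlap in CPM for 12 of the 25 genes, 7 higher and 5 lower, against 45.5% of all tested genes. The median log2 fold change was 0.081 over the 25 genes and -0.0023 over all genes, and 15 were positive and 10 negative. At the adjusted p alone, counts of 2 and 3 of 25 genes are too small to set the family apart from all genes. The 3 lower genes include FOXI1, which passed the filter on low counts only through the control libraries. In bulk RNA, fewer cells of a type and less RNA per cell cannot be told apart.

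**Figure D2:**
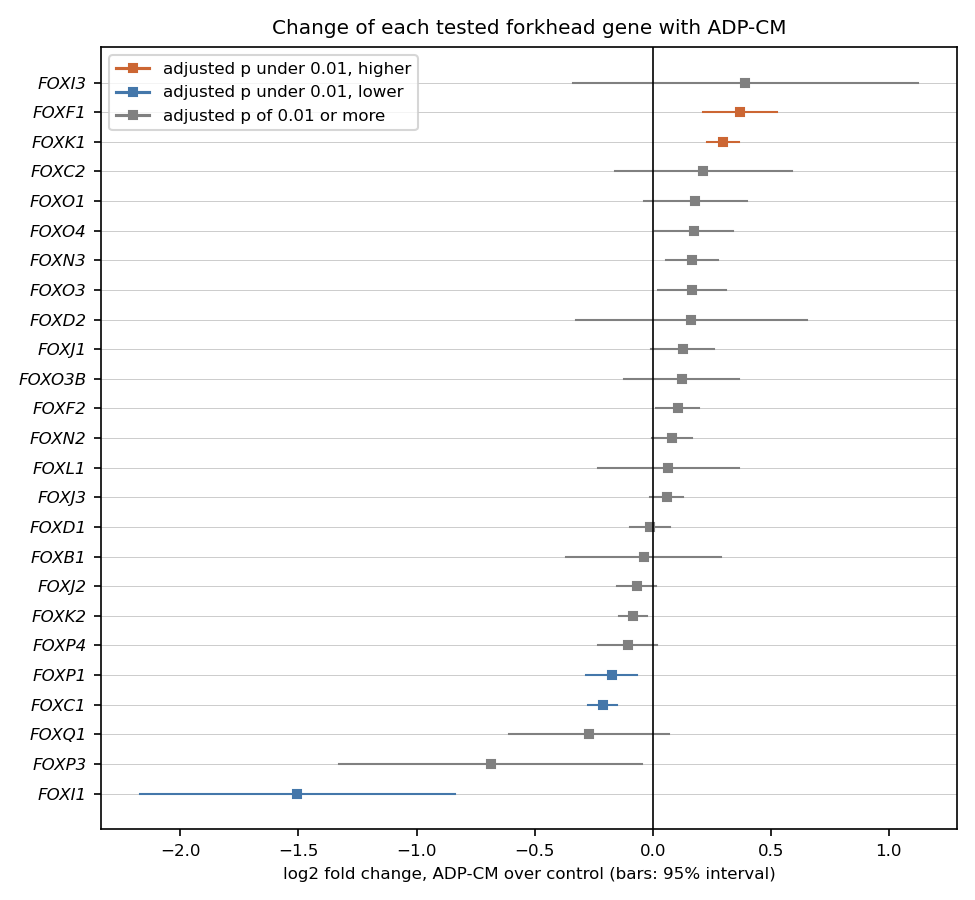
Log2 fold change of ADP-CM over control for the 25 tested forkhead genes, squares with bars for the 95% interval, with orange and blue for genes past an adjusted p of 0.01. FOXI1 lies lowest at -1.50, FOXC1 (-0.21) and FOXP1 (-0.17) are the other blue genes, and FOXF1 (0.37) and FOXK1 (0.30) are orange.

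FOXI1, which directs ionocyte and intercalated cell programmes in airway, kidney and inner ear, had the lowest log2 fold change of the family. Replicates 1 to 3 held 24, 26 and 26 reads under control medium and 14, 7 and 8 reads under ADP-CM. Every control library was above every ADP-CM library, from 1.51 ± 0.0309 CPM to 0.530 ± 0.212 CPM. The log2 fold change was -1.50 (SE 0.33, 95% interval -2.17 to -0.84, adjusted p = 8.72e-05, edgeR). FOXI1 passed the filter on low counts only through the control libraries, where it had to be the higher, and no library had more than 26 reads of it, so its p and its call over 1.5-fold are given as a description. It lies at chr5:169532901-169536738 on the + strand (GRCh37), and 1.59% of its 50-base stretches occur in another gene.

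FOXC1, a mesenchymal and neural crest regulator expressed in many carcinomas, was lower with ADP-CM. Its reads were 2245, 2389 and 2277 in control and 2103, 2153 and 2262 in ADP-CM, which is 137.7 ± 4.21 against 118.8 ± 3.63 CPM with no overlap. The log2 fold change was -0.21 (SE 0.031, adjusted p = 1.08e-07, edgeR), a fall of 13.7%. FOXC1 was the family's highest gene per kb in ADP-CM as in control, at 29.8 ± 0.912 CPM per kb.

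FOXK1, which with FOXK2 regulates glycolysis and autophagy genes in response to insulin and nutrients, was higher with ADP-CM. Its reads were 1702, 1745 and 1839 in control and 2453, 2200 and 2444 in ADP-CM, or 105.3 ± 2.12 against 129.4 ± 8.31 CPM, with no overlap. The log2 fold change was 0.30 (SE 0.034, adjusted p = 1.02e-10, edgeR). Its paralogue FOXK2 had 2231, 2361 and 2358 reads in control and 2321, 2375 and 2472 in ADP-CM. In CPM, FOXK2 was 138.4 ± 1.24 against 130.7 ± 3.27, with no overlap, but its log2 fold change of -0.08 (95% interval -0.14 to -0.02) did not pass at an adjusted p of 0.025 (edgeR), and passed only without ADP-CM replicate 3 (0.00669).

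FOXF1, a factor of lung and gut mesenchyme and of vessels, was higher with ADP-CM. Its reads were 236, 218 and 234 in control and 325, 299 and 348 in ADP-CM, or 13.7 ± 0.819 against 17.7 ± 1.32 CPM, again with no overlap. The log2 fold change was 0.37 (SE 0.078, adjusted p = 8.88e-05, edgeR). FOXF2, its closest relative, had 792, 866 and 810 reads in control and 946, 941 and 1013 in ADP-CM, with no overlap and a log2 fold change of 0.11 (adjusted p = 0.0588, edgeR).

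**Figure D3:**
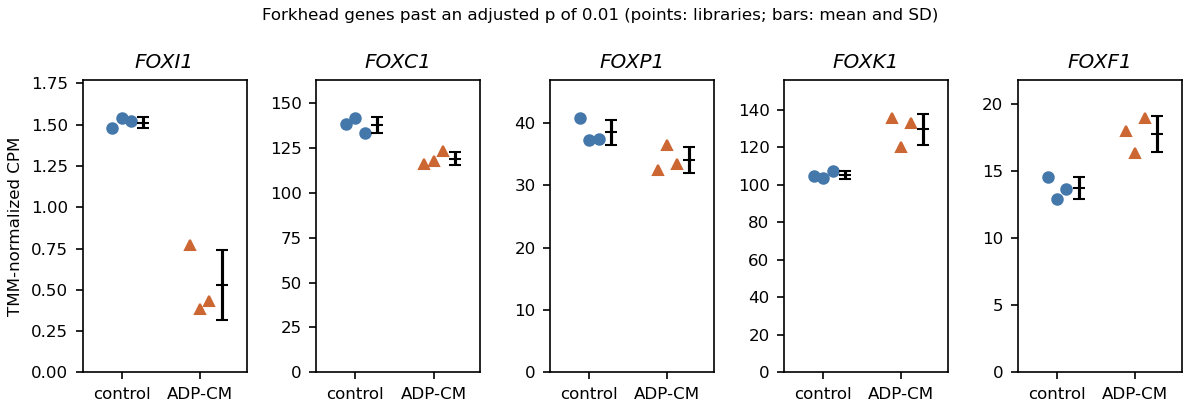
TMM-normalized CPM of the 5 forkhead genes past an adjusted p of 0.01, one panel per gene with an axis from 0, points for single libraries and bars for mean and SD (n = 3). The libraries do not overlap in any panel, and FOXP1 shows the narrowest gap, with ADP-CM replicate 2 close under the control libraries.

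FOXP1, a repressor with roles in lung, heart and B cells, had 661, 630 and 639 reads in control and 587, 668 and 615 in ADP-CM. These are 38.5 ± 1.97 against 34.1 ± 2.08 CPM, and the lowest control library stood just above the highest ADP-CM library. The log2 fold change of -0.17 (SE 0.054) passed at an adjusted p of 0.00790 (edgeR). It did not pass without control replicate 1 (0.0855), without control replicate 3 (0.0119), without ADP-CM replicate 1 (0.0712) or without ADP-CM replicate 3 (0.0234), nor in DESeq2 (0.0715). FOXP4 had a log2 fold change of -0.10 (adjusted p = 0.190, edgeR) and FOXP3 one of -0.69 (95% interval -1.33 to -0.05, adjusted p = 0.0806, edgeR), on 33, 12 and 20 reads in control against 17, 16 and 11. The FOXP3 value was -0.23 without control replicate 1 (adjusted p = 0.689) and -0.98 without control replicate 2 (adjusted p = 0.0176).

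The FOXO genes, effectors of insulin and stress signalling, all had positive log2 fold changes but none passed. FOXO1, which also drives decidualization, had 126, 116 and 145 reads in control and 149, 175 and 155 in ADP-CM, and its log2 fold change was 0.18 (95% interval -0.04 to 0.40, adjusted p = 0.196, edgeR). FOXO3 had 0.17 (0.02 to 0.31, adjusted p = 0.0577) and FOXO4 0.17 (0.01 to 0.34, adjusted p = 0.0929), the latter without overlap. FOXO3B had 0.12 (adjusted p = 0.461, edgeR), or -0.034 without control replicate 3. Of its 50-base stretches 68.7% occur in other genes, as do 36.0% of those of FOXO3. Reads that align to several places were dropped, so both counts rest on the remaining stretches and both levels are uncertain. Whether reads were mixed between the pair was not tested.

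FOXJ1, the master regulator of motile cilia, had 325, 340 and 336 reads in control and 424, 371 and 399 in ADP-CM, with no overlap, but its log2 fold change of 0.13 (95% interval -0.01 to 0.26) had an adjusted p of 0.130 (edgeR). FOXN3, a cell cycle repressor, came close at 0.17 (0.06 to 0.28, adjusted p = 0.0126, edgeR) and passed without control replicate 2 (0.00329) or ADP-CM replicate 2 (0.009995), but had 0.151 without control replicate 3, 0.0694 without ADP-CM replicate 1 and 0.0994 in DESeq2. FOXN2 had 0.08, FOXJ2 -0.07 and FOXJ3 0.06, none of which passed.

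FOXD1, at 61.5 ± 2.00 CPM in control, had 995, 1006 and 1087 reads in control and 1172, 1061 and 1110 in ADP-CM with a log2 fold change of -0.01 (adjusted p = 0.846, edgeR). FOXJ3 had 1636, 1627 and 1717 reads against 1863, 1981 and 1823, which overlap once scaled to library size. FOXQ1 had -0.27, FOXC2 0.22, FOXD2 0.16, FOXL1 0.07 and FOXB1 -0.04 on the log2 scale, and FOXI3 0.39, none passing. Over the 11 genes of at least 10 CPM that did not pass, the 95% intervals of the log2 fold change lay between -0.23 and 0.34.

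FOXC1, FOXF2 and FOXQ1 form a group of 301.8 kb on chromosome 6, and FOXF1, FOXC2 and FOXL1 one of 72.95 kb on chromosome 16 (GRCh37). On chromosome 6, FOXQ1 (1312333 to 1314993), FOXF2 (1389811 to 1395838) and FOXC1 (1610150 to 1614132) all lie on the + strand. FOXC1 was lower and its neighbours, FOXF2 at 0.11 and FOXQ1 at -0.27, did not pass. On chromosome 16, FOXF1 (86544133 to 86549028) was higher, while FOXC2 (86600435 to 86603334) and FOXL1 (86609974 to 86617084), at 0.22 and 0.07, did not pass.

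**Figure D4:**
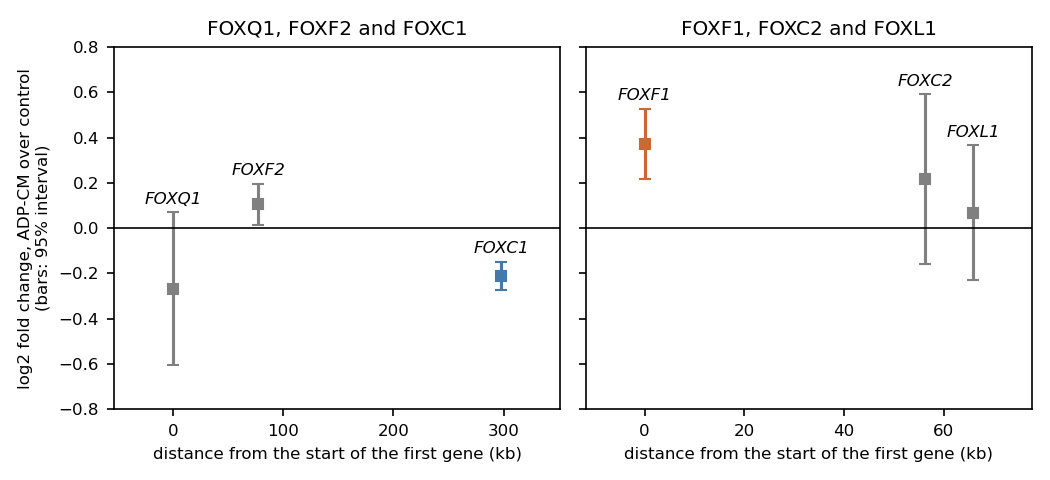
Log2 fold change with 95% interval against distance in kb from the start of the first gene in each group of neighbouring forkhead genes, grey where the adjusted p was 0.01 or more. FOXC1 (-0.21) and FOXF1 (0.37) are the coloured genes, and the intervals of FOXQ1, FOXC2 and FOXL1 cross 0.

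Promoter sequences of RefSeq (GRCh38.p14, the 250 bases before and 50 after each start site) matched 20 of the 25 tested genes, with 30 start sites. A core forkhead motif, TGTTTAC on either strand, was found in 3.42% of all 35116 promoters, or for 4.19% of genes, and in 2 of the 30 family promoters, those of FOXO4 and FOXP1. A STAT motif, TTCNNNGAA, the same read on both strands, was in 7.66% of all promoters, or for 9.38% of genes, and likewise in 2 of the 30, those of FOXO3B and FOXP1. The FOXP1 match sits at 1 of its 6 start sites, and both motifs lie in the same promoter. The 250 bases before that start site, at chr3:71245078-71245327 on the - strand, are shown with both matches in capitals, beside those of FOXI1 at chr5:170105647-170105896 on the + strand, which hold neither and are shown because FOXI1 had the largest change.
FOXP1: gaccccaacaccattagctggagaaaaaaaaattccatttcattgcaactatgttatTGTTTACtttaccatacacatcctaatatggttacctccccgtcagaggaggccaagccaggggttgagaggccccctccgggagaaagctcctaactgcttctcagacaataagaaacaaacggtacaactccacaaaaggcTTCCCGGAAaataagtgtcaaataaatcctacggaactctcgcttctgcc
FOXI1: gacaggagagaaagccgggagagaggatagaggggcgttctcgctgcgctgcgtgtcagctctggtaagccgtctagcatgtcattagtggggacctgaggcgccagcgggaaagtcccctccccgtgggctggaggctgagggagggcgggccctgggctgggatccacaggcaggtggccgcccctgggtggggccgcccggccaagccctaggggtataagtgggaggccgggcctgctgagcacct
These matches are descriptions of letters, not sites, and nothing follows from the absence of one.

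Genes known to control FOXO proteins, of which 28 of 30 were tested, held 5 higher and 7 lower with ADP-CM, against 26.5% of all tested genes called in either direction. SGK1, a kinase that phosphorylates FOXO, went from 18.2 ± 1.17 to 33.0 ± 0.456 CPM, a log2 fold change of 0.86 (adjusted p = 1.35e-18, edgeR). The receptor IGF1R (0.27), the kinase STK4 (0.24) and the adaptor IRS1 (0.23) were also higher. The insulin receptor INSR, named after its values were seen, was lower at -0.48 (adjusted p = 1.23e-06, edgeR). Of the 7 listed genes for the phosphoserine-binding proteins that hold FOXO in the cytoplasm, 5 were lower, where 13% of all tested genes were lower. These were YWHAE, YWHAH, YWHAQ, YWHAZ and SFN, also named after their values were seen. Their log2 fold changes were small, from -0.14 (YWHAH) to -0.074 (YWHAZ), and none passed 1.5-fold. These genes had 271 (YWHAH) to 1294 CPM (YWHAZ) in control and SE of 0.024 to 0.017, so small changes could pass. The share of 13% covers tested genes of every level. YWHAB (-0.044) and YWHAG (0.016) did not pass.

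Of 38 genes that FOXO factors are known to activate, 29 were tested, of which 4 were higher and 8 lower, where 13.5% of all tested genes were higher and 13% lower. SOD2, the mitochondrial superoxide dismutase, was higher at 0.43, from 82.4 ± 2.59 to 111 ± 1.47 CPM. CITED2, a transcriptional co-regulator, was lower at -0.75, from 30.1 ± 1.20 to 17.9 ± 0.681 CPM. The cell cycle inhibitors CDKN1B (-0.29) and CDKN1A (-0.38) were lower too. BCL6, a repressor, had 0.10 (adjusted p = 0.607, edgeR). The median log2 fold change was 0.0021 over the regulators and -0.015 over the targets, against -0.0023 over all genes. The lists share INSR, PIK3CA and RICTOR.

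**Figure D5:**
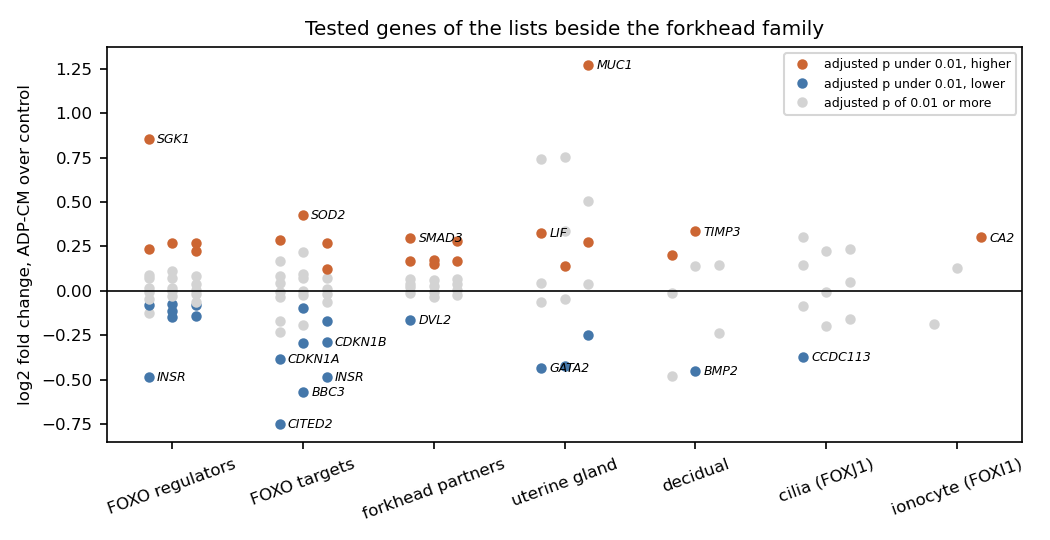
Log2 fold change of the tested genes in 7 lists beside the forkhead family, with orange and blue points for genes past an adjusted p of 0.01 and selected genes named. SGK1 (0.86) leads the FOXO regulators, CITED2 (-0.75) is the lowest FOXO target, and MUC1 (1.27) is the highest point.

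Genes that accompany FOXI1 in ionocytes were mostly silent, with 13 of 20 at 0 reads in every library, CFTR and ASCL3 among them, and 3 tested. The proton pump subunit ATP6V1B1 had 24, 22 and 20 reads in control and 36, 15 and 28 in ADP-CM, which overlap (log2 fold change 0.13, adjusted p = 0.740, edgeR). The carbonic anhydrase CA2 was higher at 0.30 (24.8 ± 0.940 against 30.5 ± 1.94 CPM, adjusted p = 3.72e-05, edgeR).

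Of 32 motile cilia genes that go with FOXJ1, 10 were tested, with 0 higher and 1 lower, against 26.5% of all tested genes called in either direction. The lower gene was CCDC113, at -0.37 (10.5 ± 2.02 against 8.10 ± 0.124 CPM, adjusted p = 0.00414, edgeR). Leaving out control 2, control 3 or ADP-CM 1 left 0 calls, as did DESeq2. The axonemal dynein DNAI1 had 1, 0 and 1 reads in control and 0, 4 and 2 in ADP-CM, TEKT1 had none, and RSPH1 had 6, 2 and 7 against 5, 2 and 3.

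Of 20 genes of the uterine glands, 15 were tested, with 4 higher and 3 lower, where 13.5% of all tested genes were higher and 13% lower. LIF, the cytokine that FOXA2 sustains in glands, went from 15.9 ± 1.43 to 20.03 ± 1.61 CPM (log2 fold change 0.33, adjusted p = 0.000271, edgeR). PAX8, a Müllerian duct factor, was higher at 0.28, and MUC1 at 1.27 from 0.953 ± 0.261 to 2.31 ± 1.23 CPM, where the libraries had 12, 21 and 15 reads against 34, 25 and 68. In both groups replicate 3 had the most reads of several genes of this list, named after their values were seen, such as TFF1 (9, 86 and 225 against 52, 34 and 502), GREB1 (12, 19 and 51 against 22, 38 and 67) and SPDEF (0, 13 and 23 against 11, 14 and 41). TFF1, GREB1 and SPDEF did not pass. XBP1, 1 of the 4 higher genes, also had most reads in replicate 3 (2103, 2199 and 2405 against 2455, 2551 and 3068). Its log2 fold change of 0.14 passed (adjusted p = 0.00338, edgeR), though its groups overlapped in CPM. The list held 9 called genes without control replicate 3 and 6 without ADP-CM replicate 3, against 7 with all libraries. The part of replicate 3 in the changes of single genes was not tested. The adhesion protein CDH1 was lower at -0.42 and GATA2 at -0.43. SOX17 had 0 reads in every library.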

How the data were processed

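RNA of RL95-2 cells (3 control and 3 ADP-CM libraries, 24 h, 50 bp single reads, stranded mRNA kit) had been aligned to hg19 with TopHat2 and assigned to RefSeq genes with HTSeq, and the authors deposited these counts, unnormalized, for every library. Versions and the strand setting of the counting are not given in the sources used here. HTSeq drops reads that align to several places. Summary lines that name no gene (10.2% to 11.6% of reads on no gene, 0.709% to 0.721% ambiguous, 20.5% to 20.8% not unique) entered neither library sizes nor tests.

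Counts were fitted in R 4.3.3 with edgeR 4.0.16 (TMM, filterByExpr, quasi-likelihood test, no covariates) over all 12663 genes kept, with Benjamini-Hochberg adjustment over them. The filter kept a gene with at least 10 reads in the median library, 0.568 CPM, in 3 libraries. Calls used an adjusted p under 0.01, with and without a fold change over 1.5. The study's DESeq was replaced by edgeR, and DESeq2 1.42.0 was an alternative. The common biological coefficient of variation was 1.67%. The fit was tested on simulated data. Every pair of replicates differed beyond sampling noise, so none was counted as one sample. Such differences can also arise between libraries of 1 culture, so they do not show that replicates were separate cultures. Reads have no molecular identifiers, so limits cover counting error only.

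One item is not reported here. Symbols matched GENCODE 44 lifted to GRCh37 for all 48 genes; lengths are of the Ensembl canonical transcript. Members and lists were chosen with earlier results of these data known; lists rest on general knowledge. Named were members past the limit, the 5 highest per kb, low members whose groups did not overlap, up to 4 called genes per list by p, and defining genes. A list of 13 noncoding genes beside members gave no match in the count table and was not used here. Alternatives were other scalings, filters, a robust fit, the replicate block, DESeq2, limits on calls and leaving out each library.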

Additional observations from a re-analysis of the deposited data

How the results depend on the processing

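FOXC1, FOXF1 and FOXK1 passed an adjusted p of 0.01 in all 14 alternative fits and FOXP1 in 9 of 14. Of 347 values of single forkhead genes over the alternatives, 331 kept their direction and side of the limit, 3 passed only there, 5 lost the limit and 8 changed sign, none of them called. These came from leaving out 1 library, with ranges of -0.15 to 0.030 for FOXB1 (above 0 without control replicate 3, 0.0091, or ADP-CM replicate 1), -0.058 to 0.023 for FOXD1 (above 0 without control replicate 3, 0.013, or ADP-CM replicate 2), -0.15 to 0.49 for FOXD2 (below 0 without ADP-CM replicate 3), -0.065 to 0.16 for FOXL1 (below 0 without control replicate 1, -0.054, or ADP-CM replicate 2) and -0.034 to 0.23 for FOXO3B (below 0 without control replicate 3). The cause was not tested.

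With a fold change over 1.5 as well, 0 forkhead genes were higher and 1 was lower, and the lists kept 1 FOXO regulator, 1 FOXO target and 1 uterine gland gene and 0 ionocyte, cilia, decidual and partner genes. DESeq2 called 0 cilia genes and 4 uterine gland genes, where edgeR called 1 and 7, and 1978 genes in all against 3357. An adjusted p under 0.05 gave 2 cilia genes. Without 1 library, the cilia count ranged from 0 to 1, the higher forkhead count from 2 to 3 and the lower from 2 to 3. The uterine gland count ranged from 5 to 9 in these fits and was 8 with the replicate block. Expressed forkhead genes numbered 26 at 0.5 CPM, 24 at 10 reads in each control library and 32 at 1 read. The replicate block gave 2 higher and 3 lower, as without it. Same-numbered libraries deviated together by correlations of 0.073, 0.014 and 0.097, and differently numbered ones by -0.093 to 0.026. ADP-CM replicate 2 correlated more with control replicate 1 (0.026) than with its own number. These small correlations do not settle whether same-numbered libraries were paired. Depth limits genes under about 1 CPM, and levels per kb depend on the transcript chosen.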

Other observations

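All 19 listed forkhead partners, proteins that bind or modify forkhead factors, were tested, with 6 higher and 1 lower, where 13.5% of all tested genes were higher and 13% lower. SMAD3, the TGF-beta effector that FOXO factors join, was higher at 0.30 on the log2 scale (174 ± 4.84 against 214 ± 1.55 CPM, n = 3 each, adjusted p = 1.12e-14, edgeR). OGT, an enzyme that adds sugars to FOXO1, was higher at 0.28, the Wnt effector CTNNB1 at 0.17 and the corepressor CTBP2 at 0.17. The Wnt adaptor DVL2, which FOXK proteins carry into the nucleus, was lower at -0.16 and was named after its value was seen. The median over the list was 0.04, against -0.0023 over all genes.

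Of 16 decidual genes, 8 were tested, with 2 higher and 1 lower, against the same shares of all tested genes. TIMP3, an inhibitor of matrix proteases, was higher at 0.33 (151 ± 3.05 against 191 ± 2.83 CPM) and CEBPB, a FOXO1 partner in decidua, at 0.20. BMP2 was lower at -0.45 (15.9 ± 0.251 against 11.6 ± 0.300 CPM, adjusted p = 6.53e-06, edgeR). The classical decidual markers were at the limit of detection, with PRL at 0 reads in every library and IGFBP1 at 1 read in ADP-CM replicate 2 and 0 elsewhere.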
